A study of Mus musculus with 18 samples.

Results

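Among the autosomal regions of bone marrow-derived macrophages (BMDM) that carried H3K27 acetylation (H3K27ac), 1673 were marked in wild-type (WT) and in mdxTLR4-/- cells but not in mdx cells. They were found by merging the H3K27ac peaks of the 3 genotypes wherever peaks overlapped by at least 1 bp on chromosomes 1 to 19, and by keeping the merged regions with a WT peak, an mdxTLR4-/- peak and no mdx peak. They made up 7.77% of the 21525 merged regions and covered 3.61 Mb. The regions were thus chosen by the presence and absence of peaks in these same lists, so peak presence and read counts are given below as a description, without a test. Absence of an mdx peak means that the peak caller reported none, and not that acetylation was 0. H3K27ac had 1 input library, labelled C57BL6 with no genotype, and which input served to call the peaks of each genotype is not given in the sources used here.

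The mdx mouse lacks dystrophin and serves as a model of Duchenne muscular dystrophy. Toll-like receptor 4 (TLR4) is an innate receptor for bacterial lipopolysaccharide and for molecules released from damaged tissue. The H3K27ac libraries came from unstimulated primary BMDM of 3 genotypes: 2 libraries of WT mice (strain label C57BL6, labelled ages 19 and 20 weeks), 2 of mdx mice (Dmdmdx-4Cv, 21 and 22 weeks) and 1 of mdxTLR4-/- mice (written mTLR4 in the lists and in the plots, Bl6/Bl10, 23 weeks), which carried the mdx mutation and lacked Tlr4. H3K27me3 had 2 libraries per genotype, with labelled ages of 12 to 17 weeks. The labelled ages rise by 1 week from sample to sample over all 18 samples, from 6 to 23 weeks, and may not be the true ages. Genotype, strain label and labelled age cannot be told apart in this design. The replicates of a genotype were merged before peaks were called, which left 1 list per genotype with 15665 WT, 12076 mdx and 12493 mdxTLR4-/- peaks, holding 274020, 191629 and 168487 ChIP reads. Differences between genotypes therefore had no replicate check. Intervals below are at the 95% level and cover counting error only.

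H3K27ac is deposited by the acetyltransferases p300 and CBP and marks active promoters and enhancers, whereas trimethylation of the same residue (H3K27me3) is deposited by the Polycomb complex PRC2 and marks silenced genes. In macrophages the acetylated landscape is built on the lineage factors PU.1 and C/EBP and is remodelled by AP-1, NF-kB and IRF factors after stimulation. Of 15 defining macrophage genes, including Spi1 (PU.1), Cebpa, Adgre1 (F4/80), Itgam and Cd68, 14 had an H3K27ac peak within 1 kb of the start in WT, 13 in mdx and 13 in mdxTLR4-/-. Fibroblast markers (0 of 10 in each genotype) had none. Of 13 T cell markers, Il7r, the interleukin-7 receptor, had a peak in WT and in mdxTLR4-/- and none did in mdx. Of 13 neutrophil markers, Cebpe had a peak in WT and none did in the other lists, and of 10 B cell markers, Vpreb1 had one in each. In such bulk samples a lower share of cells with a mark and less mark per cell cannot be told apart.

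Sequence upstream of 6 genes whose start lay under these regions is shown. These genes were among those with the most reads or have known roles in cytokine signalling, NF-kB control or the interferon response. Each run is the 250 bases before the annotated start in GRCm38 (mm10), written 5′ to 3′ on the strand of the gene, and lies inside the acetylated region and outside annotated exons. Capitals mark matches, on either strand, to letters associated with a transcription factor. Arl4c is at chr1:88702222-88702471 (minus strand), Luc7l3 at chr11:94321989-94322238 (minus), Jak2 at chr19:29251578-29251827 (plus), Cyld at chr8:88696778-88697027 (plus), Il18 at chr9:50554577-50554826 (plus) and Ifit1bl1 at chr19:34601957-34602206 (minus).
Arl4c: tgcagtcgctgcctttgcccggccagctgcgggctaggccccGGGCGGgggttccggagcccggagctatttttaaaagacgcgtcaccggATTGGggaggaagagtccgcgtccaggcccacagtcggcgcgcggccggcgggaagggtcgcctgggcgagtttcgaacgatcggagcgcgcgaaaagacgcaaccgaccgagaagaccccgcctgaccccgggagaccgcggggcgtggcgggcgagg
Luc7l3: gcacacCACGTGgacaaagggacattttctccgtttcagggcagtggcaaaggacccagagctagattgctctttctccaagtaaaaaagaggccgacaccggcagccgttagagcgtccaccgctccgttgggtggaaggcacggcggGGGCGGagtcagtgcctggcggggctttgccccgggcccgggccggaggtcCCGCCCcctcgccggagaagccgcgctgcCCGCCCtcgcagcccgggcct
Jak2: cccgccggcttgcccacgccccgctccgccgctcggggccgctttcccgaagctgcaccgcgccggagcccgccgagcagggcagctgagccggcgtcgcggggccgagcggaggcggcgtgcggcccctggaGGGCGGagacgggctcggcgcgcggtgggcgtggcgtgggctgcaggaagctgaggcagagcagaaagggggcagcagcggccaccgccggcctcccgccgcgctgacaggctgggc
Cyld: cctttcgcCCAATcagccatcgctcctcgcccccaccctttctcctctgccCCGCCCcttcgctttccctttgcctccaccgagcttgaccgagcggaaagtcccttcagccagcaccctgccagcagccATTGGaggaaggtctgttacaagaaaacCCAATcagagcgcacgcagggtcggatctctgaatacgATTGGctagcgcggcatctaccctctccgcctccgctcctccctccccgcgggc
Il18: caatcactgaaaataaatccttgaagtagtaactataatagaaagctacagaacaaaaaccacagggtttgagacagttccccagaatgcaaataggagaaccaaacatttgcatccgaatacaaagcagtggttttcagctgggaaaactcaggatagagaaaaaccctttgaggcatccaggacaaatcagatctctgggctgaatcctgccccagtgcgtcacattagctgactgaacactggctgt
Ifit1bl1: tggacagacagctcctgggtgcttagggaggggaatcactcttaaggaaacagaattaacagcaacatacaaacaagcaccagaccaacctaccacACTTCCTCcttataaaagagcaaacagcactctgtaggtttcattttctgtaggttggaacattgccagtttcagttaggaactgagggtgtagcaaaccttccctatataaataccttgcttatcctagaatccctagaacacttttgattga

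The 4 runs of Arl4c, Luc7l3, Jak2 and Cyld were rich in G and C, from 62.8% in Cyld to 80% in Jak2, and held between 18 CG pairs in Cyld and 37 in Jak2. In capitals they show GGGCGG (Sp/KLF factors, also read as CCGCCC) in all 4, CCAAT (NF-Y, also read as ATTGG) in Arl4c and Cyld, and CACGTG (E-box) in Luc7l3. The runs of Il18 and Ifit1bl1 were of another kind, with 42.8% and 42.4% G and C and with 2 and 0 CG pairs. Ppig and Cisd2, also among the starts with the most reads, are not shown. Their runs were low in G and C as well, with 43.2% and 44.4% and with 6 and 3 CG pairs. Il18 held none of the 10 motifs searched, and Ifit1bl1 held GAGGAAGT (PU.1), read on the other strand. The string searched for IRF factors was GAANNGAAA. IRF sites with a longer run of A after the first G do not match it and carry no capitals. A run without IRF capitals, such as that of Ifit1bl1, can therefore still hold an IRF site. Upstream of all 20807 autosomal protein-coding genes, 39.6% of 250-base windows held GGGCGG, 35.5% CCAAT, 6.6% CACGTG and 2.35% GAGGAAGT. Upstream of the 735 genes with one of these regions over the start, GGGCGG was found in 59.7% (56.1 to 63.2), against 53.3% (51.8 to 54.9) of the 4090 genes with a region marked in all 3 genotypes.

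The 1673 regions were 20.8% of the 8056 regions that carried both a WT and an mdxTLR4-/- peak. The 2 sister patterns had lower shares. Of the regions with WT and mdx peaks, 17.4% (1340 of 7723) had no mdxTLR4-/- peak, and of those with mdx and mdxTLR4-/- peaks, 8.53% (595 of 6978) had no WT peak. WT was the list with the most peaks and reads, and a region was least often missing from it. The mdxTLR4-/- list had fewer reads than the mdx list (168487 against 191629) and slightly more peaks (12493 against 12076). A region was missing from it less often than from mdx (17.4% against 20.8%). A part of list size in these shares was not tested. The share without an mdx peak depended on how peaks were taken. It was 18.4% with lists of equal length and 6.86% (310 regions) where WT and mdxTLR4-/- peaks had to hold 10 or more reads. Where peaks of a list had to cover 50% of a region to count, 34.8% had no such cover by mdx peaks. These regions could still hold a shorter mdx peak.

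The regions without an mdx peak were weakly marked in the other genotypes. Their median was 10 reads in WT (quartiles 8 and 13, range 5 to 46) and 7 reads in mdxTLR4-/- (quartiles 6 and 10, range 5 to 28). The 6383 regions marked in all 3 genotypes had a WT median of 20, an mdx median of 15 and an mdxTLR4-/- median of 13 reads. Low counts were not particular to the regions without an mdx peak. Regions lacking only the mdxTLR4-/- peak had medians of 10 WT and 9 mdx reads. Regions lacking only the WT peak had medians of 9 mdx and 7 mdxTLR4-/- reads. The regions without an mdx peak were also shorter than the shared regions, with a median of 2000 bp (200 to 7400 bp) against 3000 bp. Those lacking only the mdxTLR4-/- peak had a median of 2400 bp and those lacking only the WT peak 2000 bp. A merged region spans the peaks of every list that touches it, so its length also depends on how many lists were joined. Per kb of peak, the regions without an mdx peak had medians of 6.67 WT and 6 mdxTLR4-/- reads, against 9.44 and 8 in the shared regions. Regions lacking only the mdxTLR4-/- peak had 6 WT reads per kb, and those lacking only the WT peak 5.83 mdxTLR4-/- reads. Together the 1673 regions held 7.14% of the WT and 8.21% of the mdxTLR4-/- reads in autosomal peaks. WT reads outnumbered mdxTLR4-/- reads in 1240 of them (74.1%), equalled them in 126 and fell below them in 307, and in the shared regions WT reads were the higher in 81.1%.

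**Figure D1:**
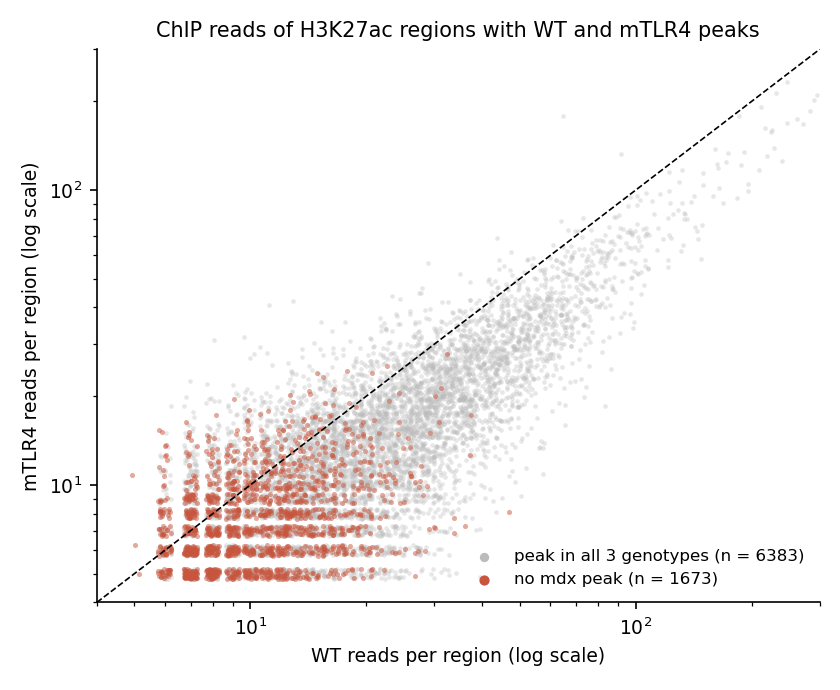
ChIP reads per H3K27ac region in WT (x axis) and mdxTLR4-/- (y axis, labelled mTLR4), both on log scales, with 1 point per region, points moved at random by up to 4% so that equal counts can be seen, and a dashed line at equal counts. Regions without an mdx peak lie at the low end of both axes, at up to 46 WT and 28 mdxTLR4-/- reads, inside the cloud of regions marked in all 3 genotypes (7 of which, above 300 reads, are not drawn).

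Absence of the mdx peak followed the read count of the other lists. Among the 8056 regions, 56.7% of those with 5 to 7 WT reads had no mdx peak, then 43.8% at 8 to 10 reads, 30.6% at 11 to 15 and 11.4% at 16 to 25, and 1.12% (0.769 to 1.62, 27 of 2416) above 25 reads. By mdxTLR4-/- reads the shares in the same classes were 44.7%, 29.8%, 14.4%, 3.18% and 0.172% (2 of 1164). The regions with WT and mdx peaks that lacked an mdxTLR4-/- peak showed the same order by WT reads, with 53.5%, 39.8%, 24.6%, 8.37% and 0.912%. Where an mdx peak was present in a region with 5 to 7 WT reads, it held a median of 9 reads. Of the regions with at least 15 reads in both WT and mdxTLR4-/-, 43 of 2773 (1.55%) had no mdx peak, and 787 of the 1673 regions (47%) had 10 or fewer reads in both lists.

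**Figure D2:**
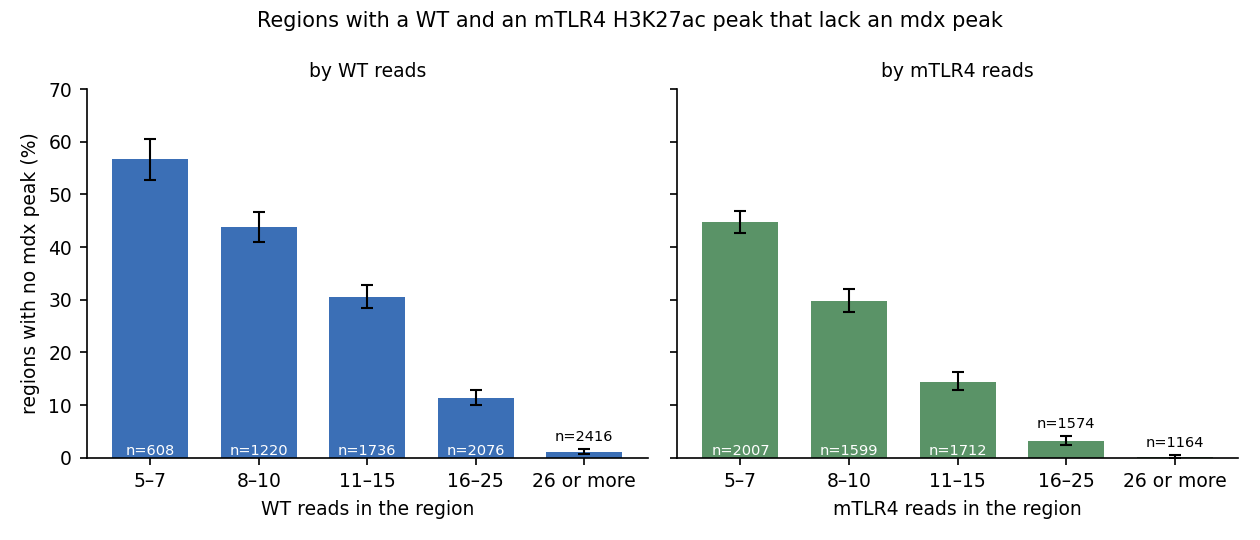
Share of regions with WT and mdxTLR4-/- H3K27ac peaks that had no mdx peak (y axis, percent), in classes of the WT read count (left) and of the mdxTLR4-/- read count (right, labelled mTLR4). Bars show the share, error bars the Wilson interval and n the number of regions; the share fell from 56.7% in the lowest to 1.12% in the highest WT class.

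The rule turned on small distances in a small number of places. The nearest mdx peak lay at a median of 24.8 kb, within 1 kb of 57 regions (3.41%), within 5 kb of 292 (17.5%) and within 50 kb of 1144 (68.4%). Just inside the rule, 6 regions abutted an mdx peak without sharing a base, with medians of 9.5 WT and 6 mdxTLR4-/- reads. Just outside it, 81 shared regions had mdx peaks over 20% of their length or less, with medians of 19 WT and 10 mdxTLR4-/- reads. The 529 regions with no mdx peak within 50 kb had medians of 10 and 7 reads, the same as all 1673.

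Position relative to genes was not used to choose the regions. Of the 1673, 633 (37.8%, 35.5 to 40.2) lay within 1 kb of the start of a protein-coding gene, 582 (34.8%) in a gene body and 458 (27.4%) between genes. Regions marked in all 3 genotypes were more often at starts (53.3%, 52.1 to 54.5), and the intervals did not overlap. Those lacking only the mdxTLR4-/- peak were at starts in 31.2% (28.8 to 33.7) and those lacking only the WT peak in 41.5% (37.6 to 45.5). The lower share at starts was seen in each class of WT reads. With 5 to 7 WT reads, 33.6% of regions without and 49.4% of regions with an mdx peak lay at a start, and with 16 to 25 reads the shares were 44.9% and 51.7%. A longer region can touch more start windows, and the shared regions were longer (median 3000 bp against 2000 bp). The part of length in these shares was not tested. A further 21% of the regions without an mdx peak lay over 50 kb from any start, against 13.8% of the shared regions. By chromosome, the share of WT and mdxTLR4-/- regions without an mdx peak ran from 18.3% to 23.9%, and the interval of each of the 19 autosomes held the pooled 20.8%.

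**Figure D3:**
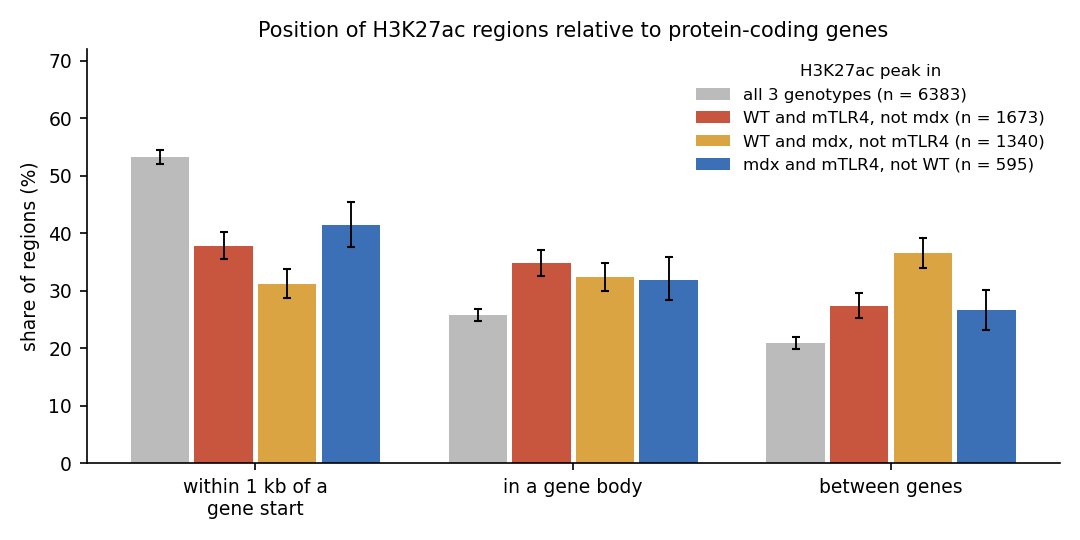
Share of H3K27ac regions (y axis, percent) within 1 kb of a protein-coding gene start, in a gene body or between genes (x axis), for 4 patterns of peak presence, with Wilson intervals as error bars (mTLR4 is mdxTLR4-/-). At gene starts the regions without an mdx peak stand at 37.8%, below the 53.3% of regions marked in all 3 genotypes.

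Base composition of the regions without an mdx peak was close to that of the shared regions at the same kind of position. At starts the median GC content was 52.2% and 50.8% and the observed to expected ratio of CG pairs 0.614 and 0.566. In gene bodies GC was 45.3% and 46.9%, and between genes 45.2% and 46.5%. Repeats, as marked in the reference, made up a median of 16.6% of the bases, against 16.8% in the shared regions, and exceeded 50% of the bases in 109 regions (6.52%), against 2.58% of shared regions and 21.7% of regions lacking only the mdxTLR4-/- peak. In the central 1000 bases of the regions without an mdx peak, TGANTCA (AP-1) was found in 27% (27.4% of all 21525 regions), GAGGAAGT (PU.1) in 13.5% (12.1%), GAANNGAAA (IRF) in 34.1% (33.9%), TTGCNNAA (C/EBP) in 37.9% (36.2%), GGGCGG in 38.6% (30.6%), CCAAT in 70.7% (74.2%), CACGTG in 15.6% (14.6%), TGACGTCA (CRE) in 1.91% (1.94%), GCGCATGC (NRF1) in 3.71% (2.89%) and CCGGAAGT (ETS) in 6.1% (4.2%). Shared regions held GGGCGG in 49.3%, GCGCATGC in 4.31%, CCGGAAGT in 7.41% and GAANNGAAA in 30%. The shares for GAANNGAAA are those of this string and not of IRF sites in general. IRF sites with a longer run of A after the first G do not match it and were not counted. Within 1 kb of gene starts, GGGCGG matched in 71.4% (67.8 to 74.8) of the regions without an mdx peak and in 69.8% (68.2 to 71.3) of shared regions, and GAANNGAAA in 22.9% (19.8 to 26.3) and 25.2% (23.8 to 26.7), with overlapping intervals. Away from starts, GGGCGG matched in 18.7% (16.4 to 21.1) and 25.9% (24.4 to 27.5), and GAANNGAAA in 41% (38 to 44) and 35.4% (33.7 to 37.1). GC content away from starts was lower in the regions without an mdx peak, as given above, and its part in these differences was not tested.

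H3K27me3, which the rule did not use either, was rare over these regions in every genotype. A WT H3K27me3 peak touched 33 of the 1673 (1.97%, 1.41 to 2.76), an mdx peak 28 (1.67%, 1.16 to 2.41) and an mdxTLR4-/- peak 29 (1.73%, 1.21 to 2.48). Over all H3K27ac regions the shares were 3.29%, 2.95% and 2.75%, and over shared regions 1.74%, 1.41% and 1.14%. The mdx interval overlapped the WT interval, and 8 of the regions were touched in mdx alone against 8 in WT alone. H3K27me3 was present in all 3 genotypes at 14.

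By read count, the strongest of the regions were those in which the smaller of the WT and mdxTLR4-/- counts was highest. The first 12 had between 17 and 28 reads in the smaller count. Of these, 5 lay over a gene start, 5 in a gene body and 2 between genes.

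Arl4c (ENSMUSG00000049866.12), an ARF-like small GTPase, headed the order with 32 WT and 28 mdxTLR4-/- reads at chr1:88698401-88704200. Each of the lists had 2 peaks there, with 9 and 23 WT reads and 14 and 14 mdxTLR4-/- reads, and the nearest mdx peak was 44.6 kb away. The start of Luc7l3, which encodes a protein of U1 snRNP-linked splicing, had 31 WT and 22 mdxTLR4-/- reads (chr11:94317401-94323800), with the nearest mdx peak at 45.6 kb. The start of Ppig, a nuclear cyclophilin, had 31 and 20 reads (chr2:69721001-69725200). The start of Cisd2, an iron-sulfur protein of the endoplasmic reticulum and the mitochondrial outer membrane, had 38 and 17 (chr3:135419201-135424400). The mdx list had no peak in these 4 genes or in the 5 kb upstream of them. Ifit1bl1, of the interferon-induced IFIT family, had 18 WT reads in 1 peak and 11 and 8 mdxTLR4-/- reads in 2 peaks over its start (chr19:34598801-34604000). Farther upstream, from -8.04 to -4.64 kb relative to the start, a region marked in all 3 genotypes held 86 WT and 57 mdx reads (its mdxTLR4-/- peak lay more than 5 kb upstream). In Ifit1bl1, 60.8% of the bases of the region without an mdx peak were repeats.

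Within gene bodies, Igf2r, the cation-independent mannose 6-phosphate receptor, showed how close the call can be. Its region (chr17:12754001-12756800) had 21 WT and 24 mdxTLR4-/- reads between 12.86 and 15.66 kb past the start, and an mdx peak of 5 reads stood 200 bp farther on, between 15.86 and 16.06 kb. Csf1r, the receptor of macrophage colony-stimulating factor on which these cells depend, held 2 of the regions. The first lay upstream of the start with 8 WT and 7 mdxTLR4-/- reads, and the second between 18.4 and 22.8 kb past the start with 18 and 24 reads. Between them was a region marked in all 3 genotypes with 154 WT, 165 mdx and 96 mdxTLR4-/- reads. In the body of Btbd11, a region of 22 WT and 20 mdxTLR4-/- reads was 97.8% repeats and was covered by H3K27me3 over 5600 bp in WT, 5400 bp in mdxTLR4-/- and 0 bp in mdx, so both marks lacked an mdx peak there. A region near Gm21188 (23 and 26 reads) was covered by H3K27me3 in each genotype, over 3200 bp in WT, 2800 bp in mdx and 2000 bp in mdxTLR4-/-. The other body regions in this order were at 1700011L22Rik (25 and 21 reads) and in 3110082I17Rik near Gpr146 (19 and 19), and the other region between genes lay 7.71 kb from the start of Clec4d, an activating lectin of myeloid cells (31 and 17). The start of Clec4d itself was marked in all 3 genotypes, with 162 WT, 98 mdx and 116 mdxTLR4-/- reads.

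**Figure D4:**
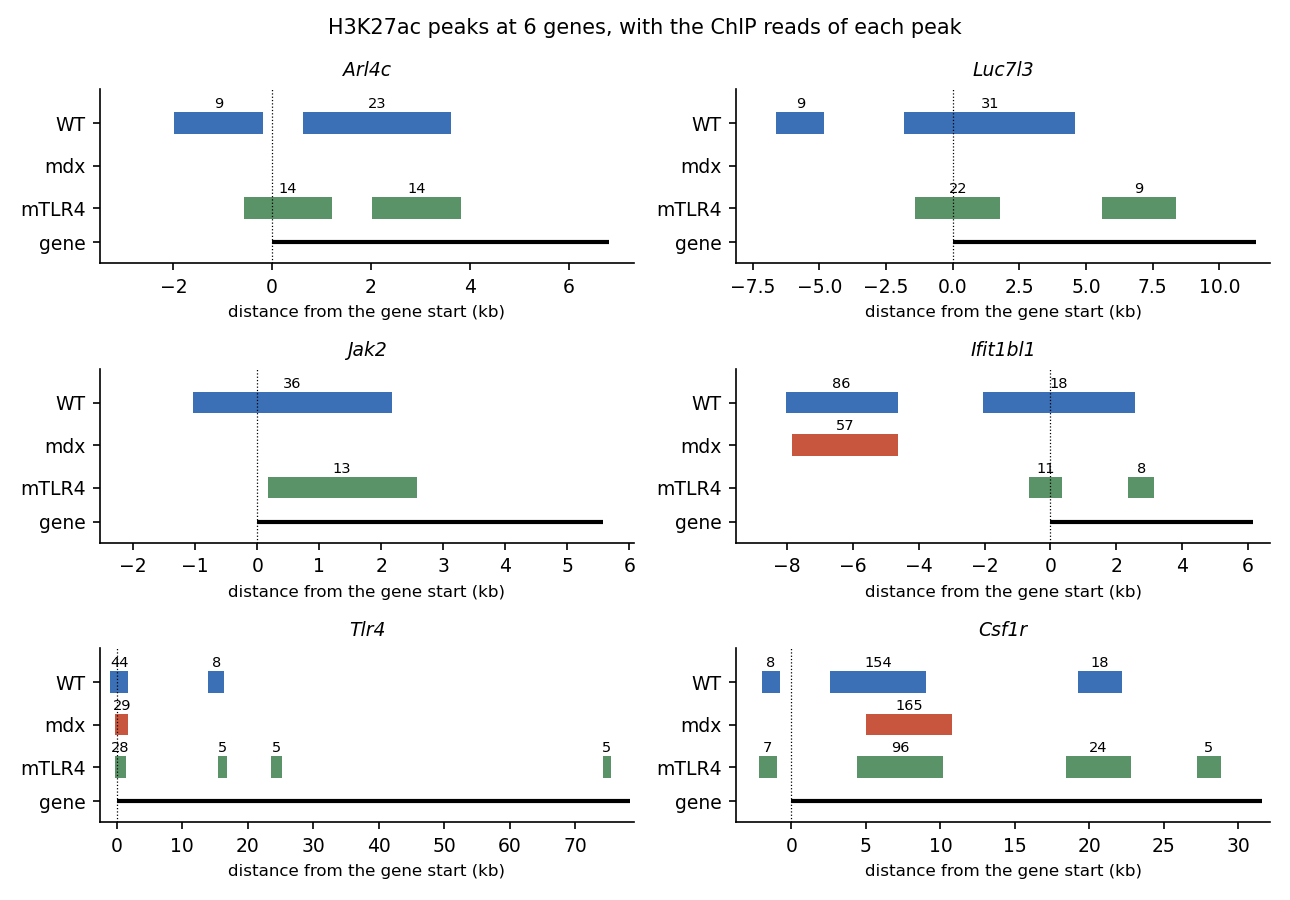
H3K27ac peaks of WT, mdx and mdxTLR4-/- (labelled mTLR4) at Arl4c, Luc7l3, Jak2, Ifit1bl1, Tlr4 and Csf1r, against the distance from the gene start in kb in the direction of the gene. Bars are peaks within the gene and 5 kb upstream with their ChIP reads above, and the black line is the gene, shown up to 3 kb past the last peak; Arl4c, Luc7l3 and Jak2 have no mdx bar, whereas Tlr4 and Csf1r have mdx bars beside the regions that lack one.

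Over genes as a whole, 735 protein-coding genes had a region without an mdx peak over the start, which is 15.2% of the 4822 genes whose start was under a region with WT and mdxTLR4-/- peaks. Such starts are called marked starts in the gene lists below. The merged region had to touch the window of 1 kb on either side, and single peaks in it could lie outside that window. Of the 735, 8 had an mdx peak elsewhere in the same window of 1 kb on either side, 141 had one outside that window but in the gene or the 5 kb upstream, and 586 had none. A single region covered the starts of 2 or more genes in 99 cases, as with Il18 and Bco2, which share a region.

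Genes of innate signalling were among them, at shares near or below 15.2%. Of 31 marked starts of TLR and NF-kB genes, 3 lacked an mdx peak. Irf3, the interferon regulatory factor downstream of TLR4 and TLR3, had 16 WT and 11 mdxTLR4-/- reads. Cyld, a deubiquitinase that restrains NF-kB, had 12 and 8. Ikbke, a kinase of IRF3, had 8 and 5, and an mdx peak of 11 reads lay 400 bp away inside the gene. Of 39 marked interferon-stimulated genes, 3 lacked an mdx peak, among them Oas2, an oligoadenylate synthetase (22 and 11 reads), and Psmb8, an immunoproteasome subunit (8 and 6). The 36-read WT peak of Jak2, the kinase of several cytokine receptors, was among the highest of all 1673 regions, with 13 mdxTLR4-/- reads and the nearest mdx peak 112 kb away.

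Cytokine, chemokine and receptor genes gave 4 of 25 marked starts (16%, 6.4 to 34.7). Il18, an inflammasome-dependent cytokine, had 23 WT and 12 mdxTLR4-/- reads. Ccl6, a myeloid chemokine, had 16 and 9, and Csf3r, the granulocyte colony-stimulating factor receptor, had 10 and 5. Csf1r, with 8 and 7 reads, was also the 1 macrophage identity gene of 25. Its region did not cover the annotated start but ended 797 bp before it. The gene also held the region marked in all 3 genotypes described above. Il7r, the T cell marker named above, had 20 and 14. None of the 20 marked starts of AP-1, CREB and ATF factor genes lacked an mdx peak, an interval of 0 to 16.1%.

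Metabolic genes followed the background as well. Glycolysis and the citrate cycle gave 4 of 24, with Pfkfb4, a regulator of fructose 2,6-bisphosphate (25 and 14 reads), Idh2, the mitochondrial isocitrate dehydrogenase (15 and 10), Pfkp, a phosphofructokinase (13 and 8) and Dld, a subunit of 2-oxoacid dehydrogenases (7 and 5). Oxidative phosphorylation gave 6 of 36, led by Cox17, a copper chaperone of cytochrome oxidase (20 and 10), and by the ATP synthase subunit genes Atp5f1 (9 and 12) and Atp5o (18 and 7). Cholesterol and mevalonate synthesis gave 2 of 13, Idi1 (18 and 7) and Sc5d (5 and 6). Lysosome and autophagy genes gave 3 of 38, among them the autophagy genes Atg7 (18 and 14) and Atg2a (11 and 9). At Atg7 a region marked in all 3 genotypes began within the gene, with 23 mdx reads, 1 kb from the region that lacked an mdx peak.

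Housekeeping complexes ranged more widely in share, with intervals that held 15.2% in each. Proteasome genes gave the highest share of the lists with 10 or more marked starts, 7 of 32 (21.9%, 11 to 38.8), among them Psmd8 (17 and 11 reads), Psmb4 (11 and 9) and Psmb7 (21 and 6). Splicing factors gave 3 of 46 (6.52%, 2.24 to 17.5), Prpf8 (8 and 15), Srsf6 (18 and 8) and Sf3a1 (8 and 7). Cytosolic ribosomal proteins gave 5 of 46, with Rpl7 (13 and 10) among them. Chromatin regulators gave 6 of 46, with the remodelling subunit Smarcb1 (12 and 13), the PRC2 methyltransferase Ezh2 (7 and 15) and the acetyltransferase Crebbp (8 and 5). In Arid2, a PBAF subunit (11 and 8), an mdx peak lay in the same window around the start. Cell cycle genes gave 4 of 34, among them the retinoblastoma gene Rb1 (13 and 10), the kinase gene Wee1 (10 and 9) and the replication gene Mcm10 (8 and 8). Protein folding gave 4 of 40, among them the chaperonin gene Cct3 (13 and 11), Pdia4 (14 and 7) and the chaperone Hsph1 (12 and 6). Matrix genes gave 1 of 14, the integrin gene Itgb5 (11 and 6).

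For 3 lists compiled by the study, 26 of 280 marked pro-inflammatory starts (9.29%, 6.42 to 13.3), 36 of 251 anti-inflammatory starts (14.3%, 10.5 to 19.2) and 1 of 10 pro-fibrotic starts (10%, 1.79 to 40.4) lacked an mdx peak. The interval of the pro-inflammatory list lay below 15.2%. Intervals were not adjusted for the number of lists, and the reads of these starts were not compared with those of all marked starts. Starts that share a region, such as those of Il18 and Bco2 in this list, were counted separately. Jak2, Ifit1bl1, Il18 and Bco2 headed the pro-inflammatory list by reads, and Arl4c, Ap1b1, an adaptor subunit of clathrin coats (17 and 15), and Znrf2, a ubiquitin ligase (19 and 15), the anti-inflammatory list.

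**Figure D5:**
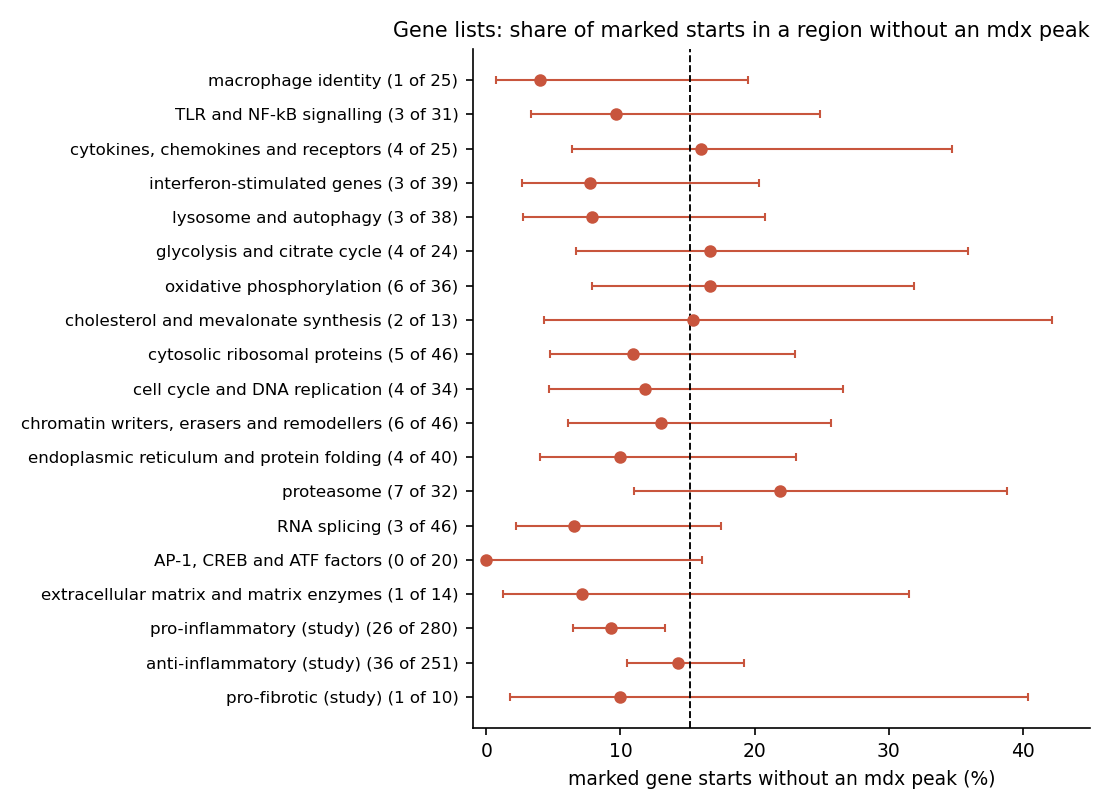
Share of marked gene starts with a region without an mdx peak (x axis, percent), for gene lists with at least 10 marked starts (y axis, with the counts), with Wilson intervals. A marked start has within 1 kb a merged H3K27ac region with WT and mdxTLR4-/- peaks, which can themselves lie farther off. The dashed line is the 15.2% of all such starts; the interval of the pro-inflammatory list, up to 13.3%, is the 1 that does not reach it.

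Tlr4 and the genes for which the study designed ChIP primers were mostly outside the pattern. The start of Tlr4 was marked in all 3 genotypes, with 44 WT, 29 mdx and 28 mdxTLR4-/- reads, and 1 of the regions lay in its body, with 8 WT and 5 mdxTLR4-/- reads between 14.02 and 16.82 kb. Which part of Tlr4 is deleted is not given in the sources used here, so the peak at its start does not check the genotype. At Arg1, Mrc1 and Tgfb1 the merged region over the start was touched by peaks of all 3 lists, but not always near the start. Within 1 kb of the Arg1 start WT had a peak of 18 reads, and mdx and mdxTLR4-/- had no peak. At the Mrc1 start WT had 19 and mdx 8 reads, with no mdxTLR4-/- peak. Tgfb1 had 21 WT, 24 mdx and 14 mdxTLR4-/- reads there. At Tnf the start had 12 WT and 9 mdx reads and no mdxTLR4-/- peak. Nos2 and Il12a had no H3K27ac peak in any genotype.

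Most genes held a single region of this kind. Counting the gene body and 5 kb upstream, 1304 genes had 1, 78 had 2 and 12 had 3 or more. The annotated gene with most, 7, was Gm20388, a gene model of 4435 kb that spans many other genes. Of the other genes with 3 or more, named after their values were seen, Mertk, the receptor by which macrophages engulf apoptotic cells, had 4 of its 5 regions without an mdx peak, at 13, 7, 7 and 11 WT reads and 6, 5, 6 and 9 mdxTLR4-/- reads. Srgap2 also had 4, of 12 regions, and Marf1 had 3 of its 4 regions, none of which had an mdx peak. Over the genome, 7.77% of all merged regions and 20.8% of those with WT and mdxTLR4-/- peaks were of this kind. The start of Mertk had a peak in all 3 lists. Neighbours along the chromosome were compared as well. The nearest acetylated region was another region of the same kind in 9.68% (8.36 to 11.2), and for shared regions it was one of them in 9.16% (8.48 to 9.9), so the intervals overlapped.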

How the data were processed

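H3K27ac and H3K27me3 ChIP-seq of BMDM was deposited as 6 peak lists, 1 for each mark and genotype. According to the labels and the methods of the study, reads were processed with CASAVA 1.8 and cutadapt 1.15, mapped to mm10 with Bowtie2 2.3.4, merged over replicates, and peaks were called with SICER 2.0 (window 200 bp, gap 600 bp, FDR below 0.01). The deposited count of ChIP reads in each peak was made by the authors and is not scaled for depth or length, and no input was subtracted. The input used to call the H3K27ac peaks of each genotype is not given in the sources used here. Removal of duplicate reads is not given in the sources used here and library depth is unknown, so counts were used as deposited.

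Peaks were merged in Python 3.11.15 (pandas 2.3.3, numpy 2.4.6) and the merging was tested on simulated peaks. Genes were the 20807 autosomal protein-coding genes of GENCODE vM21, and sequences and repeat masking came from GRCm38.p6. Each genotype being 1 list, no test between genotypes was made. Shares have Wilson intervals (scipy 1.17.1) and medians order-statistic intervals. Regions and gene lists were chosen with earlier results of these data known. Named genes were the 12 regions with the highest smaller count of WT and mdxTLR4-/-, up to 3 genes of each list by that count, Tlr4 and the genes with ChIP primers, and the gene with most regions. Some genes that this rule picks are not reported here. Further list members are named beside them, after their values were seen. Gene lists were drawn up from textbook knowledge or taken from the supplement of the study. The 8 alternatives applied to each result changed the peak threshold, the lengths of lists and peaks, overlap, merging distance, distance to mdx peaks and chromosomes. A further one, leaving out regions over 50% repeats, was chosen after seeing the data. Chromosome X and the input libraries were left out of the comparisons.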

Additional observations from a re-analysis of the deposited data

Results flagged for a closer look

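Chromosome X was outside the rule and was looked at as data the comparisons did not use. It held 37 regions with WT and mdxTLR4-/- peaks and no mdx peak, of 157 with both peaks (23.6%, 17.6 to 30.8); the autosomal share was 20.8%. Their medians were 11 WT and 7 mdxTLR4-/- reads. They lay over the starts of 14 protein-coding genes, among them Pgk1, a glycolytic kinase (17 and 15 reads), Gpr34, a receptor for lysophosphatidylserine (16 and 11), Hprt, of purine salvage (11 and 8) and Rbbp7, a histone-binding protein (11 and 8), which were named after their values were seen.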

How the results depend on the processing

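With WT and mdxTLR4-/- peaks of 10 or more reads, 310 regions lacked an mdx peak, 6.86% of those with both peaks. The share at a gene start was then 46.1%, the medians were 14 WT and 12 mdxTLR4-/- reads, 9 regions lay within 1 kb of an mdx peak and 167 genes had one over the start. Where peaks of a list had to cover 50% of a region to count, 34.8% had no such cover by mdx peaks. Of these, 43.7% lay at starts, with medians of 12 and 9 reads and 761 within 1 kb of an mdx peak. An mdx peak over less than 50% of a region could still lie in it, and was counted as within 1 kb. Without peaks under 1 kb the share was 22.2%, with 40.7% at starts and medians of 12 and 8 reads. With lists cut to equal length by read density it was 18.4%, with a WT median of 11 reads, and at a stricter read density the medians were 11 and 8. Merging up to 600 bp apart left 37 regions within 1 kb of an mdx peak, and requiring no mdx peak within 1 kb left 0 by construction. The share at starts was 40.7% with 2.5 kb on each side and 44.3% with all annotated genes, and the share over at least 50% under mdx H3K27me3 was 0.538%. The other 51 of 76 alternative values stayed within the interval of the reported value, or within 1.5 times of a count. The number of regions was between 1358 and 1923 under all alternatives but the minimum of 10 reads. No paired analysis was possible because the replicates were merged before peak calling, and for the same reason no replicate could be left out. Depth is unknown, each genotype is 1 list, and regions near 5 reads are at the limit of what the lists report.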
